A study of Mus musculus with 22 samples.

Results

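The genes described here encode the subunits, assembly chaperones and activators of the proteasome. They were taken by name, as every gene whose symbol is Psm, a letter from a to g and a number, and there were 50 of them among the 41814 symbols listed over the tables of 3 sorted stages. The tables of large Pro-B and large Pre-B cells list all 50, and that of small Pre-B cells lists 49, without Psmb11. A normalized count of at least 10 in as many libraries as the smaller group, the condition for a test, was reached by 49, 49 and 48 of them in the order of development. Psmc3ip entered by its symbol only: its product is a recombination cofactor named after a subunit that it binds.

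RNA with poly-A tails was sequenced from B cell precursors of adult mouse bone marrow to ask what induced LIN28B, which binds RNA and is normally made early in life, changes at each stage. The tet-LIN28B mice carried 1 allele of a doxycycline-inducible, Flag-tagged human Lin28b cDNA at the Col1a locus (Col1a tetO-LIN28B) and the Rosa26 rtTA*m2 transactivator, neither of which is limited to B cells, and controls were littermates with Rosa26 rtTA*m2 alone. Mice of both genotypes ate chow with 200 mg/kg doxycycline over 10 days, and cells bearing CD3, TER119 or GR1 were removed before sorting. Large Pro-B cells had 4 libraries of control and 5 of tet-LIN28B mice, the large Pre-B stage had 3 and 4, and the small Pre-B stage had 3 of each genotype, from 15 mice in all, 7 of which gave a library of each large stage. No mouse gave a library of both a large and the small stage. Libraries held 13899691 to 23261528 reads in large Pro-B, 19864000 to 30437872 in large Pre-B and 32004733 to 50991949 in small Pre-B cells. The mouse Lin28b row, on which reads of the human cDNA may be counted, was higher in every tet-LIN28B library (57.0 to 232 normalized counts in large Pro-B, 41.9 to 175 in large Pre-B and 81.9 to 230.2 in small Pre-B cells) than in every control of its stage (4.63 to 10.2, 9.92 to 28.8 and 0). In large Pro-B cells control replicate 4 and tet-LIN28B replicate 4 had the lowest median correlation with the other libraries of their stage (0.884 and 0.875), and in large Pre-B cells control replicate 3 did (0.918), so results that rest on them are also given without them.

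The proteasome is the protease that degrades ubiquitin-tagged proteins. Its core is a barrel of stacked rings: the outer rings are built from alpha subunits (Psma genes) and gate the entry, and the inner rings are built from beta subunits (Psmb genes), of which Psmb5, Psmb6 and Psmb7 encode the catalytic ones. The regulatory particle holds a ring of ATPases that unfold substrates (Psmc genes) and non-ATPase subunits that bind and trim ubiquitin (Psmd genes). In lymphoid cells and under interferon-gamma, Psmb8, Psmb9 and Psmb10 replace Psmb5, Psmb6 and Psmb7 in new cores, which are then called immunoproteasomes and favour peptides that MHC class I can present. PA28, made from Psme1 and Psme2, is an activator that caps the core without ATPases, and Psmg genes encode chaperones that assemble the alpha ring. NFE2L1, a transcription factor, raises proteasome genes together through antioxidant response elements (ARE) when proteasome activity falls short.

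Promoter sequence is shown because these genes are known to be transcribed together, and because the same direction of difference was measured for nearly all of them in small Pre-B cells. RefSeq (GRCm38.p6, the same build as mm10) had the bases before the start for 42 of the 50 genes. The ARE core TGACNNNGC, searched on both strands of the 250 bases before the start, was found in 5 of the 42 (11.9%) and in 11.5% of the 27025 genes with such sequence. The 5 are Psmb5, Psmb6, Psmc6, Psmd9 and Psmd12. The E-box CACGTG was found in 4 genes (9.52%, against 6.86% of all), an interferon-type motif (GAAA, 2 free bases and GAAA) in 3 (7.14%, against 3.46%) and the STAT-type motif TTCNNNGAA in 2 (4.76%, against 8.13%). These are matches of letters, and none of the 4 motifs was in more than 5 of the 42 genes. Psmd9 held 3 of them, and whether matches of different motifs overlap was not examined.

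The stretches below are 120 bases that lie before both the RefSeq and the GENCODE start, 5′ to 3′ on the strand of the gene, for 2 of the constitutive catalytic subunits, Psmb5 (chr14:54618023-54618142, minus strand) and Psmb6 (chr11:70525237-70525356, plus strand) and for those genes called in every alternative run in small Pre-B cells that have such a stretch outside the gene (all but Psmb8 and Psme1): Psmc5 (chr11:106256034-106256153, plus strand), Psmd6 (chr14:14120985-14121104, minus strand) and Psmd8 (chr7:29180702-29180821, minus strand). Psmb7 is not shown. Capitals mark the ARE core, which Psmb5 and Psmb6 hold and the other 3 do not hold in the letters shown.
Psmb5: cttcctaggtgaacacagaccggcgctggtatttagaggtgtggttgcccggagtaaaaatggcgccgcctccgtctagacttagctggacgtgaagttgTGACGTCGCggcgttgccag
Psmb6: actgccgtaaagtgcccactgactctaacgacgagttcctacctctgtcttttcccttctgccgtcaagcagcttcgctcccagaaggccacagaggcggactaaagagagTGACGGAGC
Psmc5: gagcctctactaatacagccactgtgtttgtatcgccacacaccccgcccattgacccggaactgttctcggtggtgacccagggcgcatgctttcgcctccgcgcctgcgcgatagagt
Psmd6: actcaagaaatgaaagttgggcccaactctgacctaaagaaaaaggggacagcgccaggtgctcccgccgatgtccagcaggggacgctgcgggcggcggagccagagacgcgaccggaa
Psmd8: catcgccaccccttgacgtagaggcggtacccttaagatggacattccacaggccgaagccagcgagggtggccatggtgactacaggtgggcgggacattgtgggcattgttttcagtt

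In small Pre-B cells, the resting stage at which light chain genes rearrange, 22 of the 48 tested proteasome genes were higher in tet-LIN28B than in control cells and 0 were lower, by a limma test on log2(normalized count + 1) with a Benjamini-Hochberg adjusted p under 0.05 over 14664 genes. Of all tested genes, 7.34% were called higher and 7.03% lower. The differences were small. The called genes were 15.4 to 41.2% higher (median 23.9%), with adjusted p from 0.00544 to 0.0441. Over all 48 genes the median log2 fold change was 0.22, against a median of 0.00 over all genes tested (-0.0024), and 47 of the 48 values were above 0. With each library brought to the same total 17 members were called higher and 45 were above 0, and the calls over all genes were then 5.65% higher and 8.37% lower. Without this rescaling the only value not above 0 was that of Psmc3ip, which encodes no proteasome part, at -0.00099 ± 0.13 (log2 ± SE). In 38 of the 48 genes every tet-LIN28B library lay above every control library, which held for 17.7% of all tested genes. Added up, the proteasome genes had a summed share of 7106 to 7389 CPM (the usual unit of a share of a library's total, here of its normalized counts) in the 3 control libraries and 8033 to 8427 in the 3 tet-LIN28B libraries. In bulk RNA, a different share of a cell type among the sorted cells and a different amount of RNA per cell cannot be told apart.

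**Figure D1:**
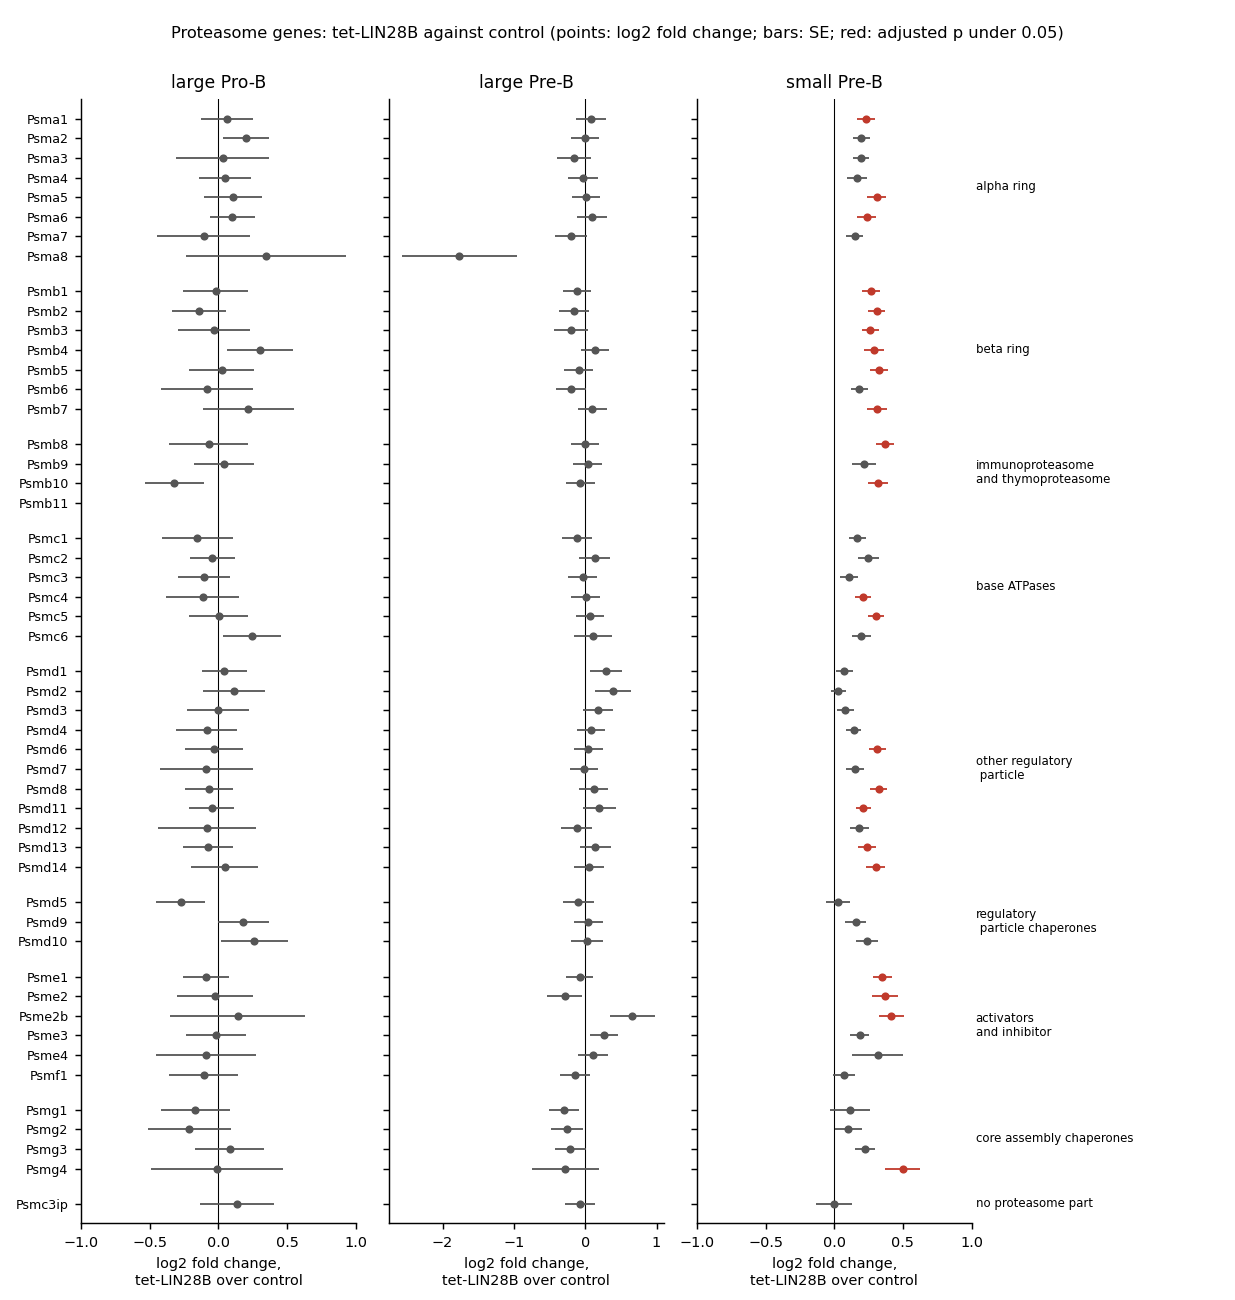
Log2 fold change of each tested proteasome gene (rows, by subgroup) between tet-LIN28B and control cells in the 3 stages (panels), with bars for the SE of the limma fit and red for an adjusted p under 0.05; the x axis of large Pre-B cells is wider than the others to hold Psma8 at -1.77. The points of small Pre-B cells sit to the right of 0 with short bars and 22 are red, whereas those of both large stages lie around 0 and 0 are red.

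The alpha ring, whose subunits form the gate of the core, had 3 of its 7 tested genes called in small Pre-B cells. Of all tested genes 7.34% were called higher. With the length correction given below none of the 3 kept its call, and Psma2 and Psma3 were called instead. Psma1 and Psma6 were called in 7 and 6 of the 18 alternatives. Psma5 had 3268, 3464 and 3421 in control and 4437, 4023 and 4125 in tet-LIN28B libraries (log2 fold change 0.31 ± 0.068, adjusted p = 0.0149). Psma6 (0.24 ± 0.068) and Psma1 (0.23 ± 0.063) were called with adjusted p of 0.0441 and 0.0371. The remaining members, Psma2, Psma3, Psma4 and Psma7, had log2 fold changes of 0.15 to 0.20 with adjusted p of 0.0574 to 0.158. None of their control libraries reached the lowest tet-LIN28B library, a separation that held for 17.7% of all tested genes. Psma8, a form of this ring known from testis, had 6.51, 0 and 5.64 in control and 3.52, 0 and 6.34 in tet-LIN28B libraries and was not tested in small Pre-B cells.

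The beta ring had the largest share of called genes, 6 of 7, and Psmb6 was the exception. Over all tested genes 7.34% were called higher, and the share was larger among short transcripts such as those of this ring (766 to 1970 bases). With the length correction given below, only Psmb1 of the 6 kept its call. Psmb5, the chymotrypsin-like catalytic subunit (chr14:54614119-54618022, mm10), had normalized counts of 4671, 5134 and 4799 in control and 6346, 5826 and 6096 in tet-LIN28B libraries. It was higher by 25.1% (95% interval 12.9 to 38.6%), or 0.32 ± 0.067 on the log2 scale with an adjusted p of 0.0112, and the lowest tet-LIN28B library exceeded the highest control. Psmb7, the trypsin-like subunit (chr2:38588036-38644087), had 2643, 2731 and 2920.3 in control and 3359, 3272 and 3654 in tet-LIN28B libraries (log2 0.31 ± 0.075, adjusted p = 0.0217). Psmb6, the caspase-like subunit (chr11:70525367-70527858), had 8757, 9399 and 9105 in control and 10799, 10168 and 9966 in tet-LIN28B libraries. Its libraries did not overlap either, but its log2 fold change of 0.18 ± 0.061 did not pass (adjusted p = 0.0752). Among the structural beta subunits, Psmb1, Psmb2, Psmb3 and Psmb4 were called with log2 fold changes of 0.27 ± 0.066, 0.31 ± 0.061, 0.26 ± 0.061 and 0.29 ± 0.072 and adjusted p of 0.0221, 0.00912, 0.0188 and 0.0251.

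Of the immunoproteasome subunits, Psmb8 and Psmb10 were called and Psmb9 was not. Of all tested genes 7.34% were called higher. Psmb8 (chr17:34197721-34201454), which takes the place of Psmb5, had 9168, 9781 and 9503 in control and 13117, 11549.8 and 12133 in tet-LIN28B libraries. It had the smallest adjusted p of the family (0.00544), with a difference of 29.2% (95% interval 16.8 to 42.9%), or 0.37 ± 0.065 on the log2 scale. Psmb10 (chr8:105935735-105938444), which takes the place of Psmb7, had 6121, 6642 and 6559 in control and 8555, 7448 and 8094 in tet-LIN28B libraries (log2 0.32 ± 0.07, adjusted p = 0.015). Psmb9 (chr17:34181987-34187764), which takes the place of Psmb6, had 3277, 3559 and 3799 in control and 4049, 3755 and 4535 in tet-LIN28B libraries. Its groups overlapped, since the lowest tet-LIN28B library lay below the highest control, and its log2 fold change of 0.21 ± 0.087 did not pass (adjusted p = 0.136). Psmb9 shares exon sequence with Tap1 on the opposite strand and Psmb8 with Gm20496, and the SMART-Seq kit marks no strand, so their reads cannot be told apart there.

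The ratio of each immunoproteasome subunit to the subunit it replaces was taken within each library. In small Pre-B cells Psmb8 over Psmb5 was 1.91 to 1.98 in control and 1.98 to 2.07 in tet-LIN28B libraries. The mean log2 ratio differed by 0.05, with no overlap between the groups, at p = 0.10 by the two-sided exact permutation test, the smallest p that 3 against 3 libraries can give. Psmb9 over Psmb6 was 0.374 to 0.417 and 0.369 to 0.455 (difference 0.03, exact permutation p = 0.90). Psmb10 over Psmb7 was 2.25 to 2.43 and 2.22 to 2.55 (difference 0.01, exact permutation p = 0.90). In both cases the ratios of the genotypes overlapped. Over the 9 ratios of 3 stages, every adjusted p was 0.90. The large stages gave wider ranges: Psmb10 over Psmb7 was 1.58 to 2.76 in control and 0.713 to 3.66 in tet-LIN28B large Pro-B libraries (difference -0.54, exact permutation p = 0.294). These are ratios of counts that are not per length, so only differences between libraries can be read from them.

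**Figure D2:**
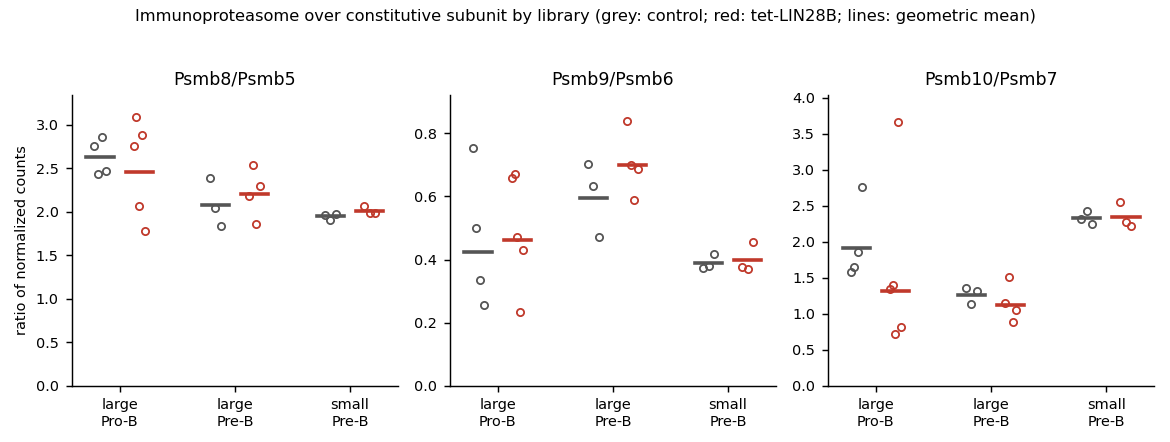
Ratio of normalized counts of each immunoproteasome subunit to its constitutive counterpart (panels) in every library (open points; grey control, red tet-LIN28B; lines at the geometric mean) for the 3 stages on the x axis, with the y axis from 0. In small Pre-B cells the groups lie close together in all 3 panels, and in large Pro-B cells Psmb10 over Psmb7 spreads from 0.713 to 3.66 within tet-LIN28B libraries.

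Of the ring of ATPases, 2 of 6 genes were called, against 7.34% of all tested genes called higher. Psmc5 was called in all 18 alternatives given below and Psmc4 in 6. Psmc5 had 5771, 5903 and 5948 in control and 7488, 7079 and 7193 in tet-LIN28B libraries, a difference of 23.5% (95% interval 12.8 to 35.1%), or 0.30 ± 0.059 on the log2 scale with an adjusted p of 0.00825. Psmc4 had 9104 ± 74.6 in control and 10517 ± 498 in tet-LIN28B libraries (mean ± SD, n = 3 each; log2 0.21 ± 0.06, adjusted p = 0.044). The other 4 ATPases had log2 fold changes of 0.11 (Psmc3) to 0.25 (Psmc2, adjusted p = 0.0516). In all 6 every tet-LIN28B library lay above every control, which held for 17.7% of all tested genes.

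Among the 11 other regulatory particle subunits 5 were called: Psmd6, Psmd8, Psmd11, Psmd13 and Psmd14. Of all tested genes 7.34% were called higher. Psmd11 and Psmd13 were called in 9 and 6 of the 18 alternatives given below. Psmd8, a lid subunit, had 9490.5, 10043 and 10175 in control and 12512, 11829 and 12800.3 in tet-LIN28B libraries (log2 0.32 ± 0.061, adjusted p = 0.00741). Psmd6, also of the lid, had 4146, 4232 and 4083 in control and 5351, 5033 and 5095 in tet-LIN28B libraries (log2 0.31 ± 0.062, adjusted p = 0.00927). Both sets of libraries stood clear of each other. Psmd14, the deubiquitinase of the lid, was higher by 0.30 ± 0.069 (adjusted p = 0.0169), Psmd11 by 0.21 ± 0.057 (adjusted p = 0.0346) and Psmd13 by 0.24 ± 0.068 (adjusted p = 0.0428). The large scaffold subunits Psmd1 and Psmd2, which hold ubiquitin receptors on the base, had log2 fold changes of 0.07 ± 0.063 and 0.03 ± 0.056, with adjusted p of 0.497 and 0.775. Psmd2 had 12816, 12315 and 12879.7 in control and 13109, 13168 and 12525 in tet-LIN28B libraries, and its groups overlapped. The 3 chaperones of the regulatory particle, Psmd5, Psmd9 and Psmd10, were not called (log2 0.03, 0.16 and 0.24).

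Both PA28 genes were called, where 7.34% of all tested genes were called higher. Psme1 shares exon sequence with Emc9 on the opposite strand, so their reads cannot be told apart there. Psme1 (chr14:55578123-55581529) had 5375, 5716 and 5443 in control and 7384, 6492 and 7213 in tet-LIN28B libraries, a difference of 27.4% (95% interval 14.5 to 41.7%), or 0.35 ± 0.069 on the log2 scale with an adjusted p of 0.00914. Psme2 (chr14:55587441-55591113) had 3483, 3851 and 3839 in control and 5519, 4329 and 4649.6 in tet-LIN28B libraries (log2 0.37 ± 0.093, adjusted p = 0.0259), with tet-LIN28B replicate 1 the highest library. Psme2b, a near copy of Psme2 that overlaps 9930111J21Rik1 on the same strand, was called at 0.41 ± 0.092 (adjusted p = 0.015). Psme2 and Psme2b may share reads, so the values of both are uncertain. Psme2 was called in 12 of the 18 alternatives given below and Psme2b in 15. Psme3, the nuclear form of the activator, was at 0.18 ± 0.069 (adjusted p = 0.105). Psme4, the PA200 activator, had 3703, 4102 and 3948 in control and 3303, 5816 and 6015 in tet-LIN28B libraries: 2 tet-LIN28B libraries lay above all controls and the other below them (log2 0.32 ± 0.19, adjusted p = 0.3). Psme4 was called only without tet-LIN28B replicate 1, the low library, a setting that leaves just the 2 libraries above all controls. Psmf1, an inhibitor of the core, was at 0.07 ± 0.079 (adjusted p = 0.619).

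Of the 4 chaperones that assemble the alpha ring, Psmg4 was called, where 7.34% of all tested genes were called higher. Psmg4 had the highest fold change of the family. Its normalized counts were 557, 688 and 565 in control and 931, 752 and 873 in tet-LIN28B libraries, a difference of 41.2% (95% interval 16.3 to 71.4%), or 0.50 ± 0.13 on the log2 scale with an adjusted p of 0.0264. Psmg4 has the shortest transcript of the family (555 bases). Psmg3 (0.22 ± 0.074), Psmg1 (0.11 ± 0.14) and Psmg2 (0.10 ± 0.10) did not pass, with adjusted p of 0.0734, 0.65 and 0.553.

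**Figure D3:**
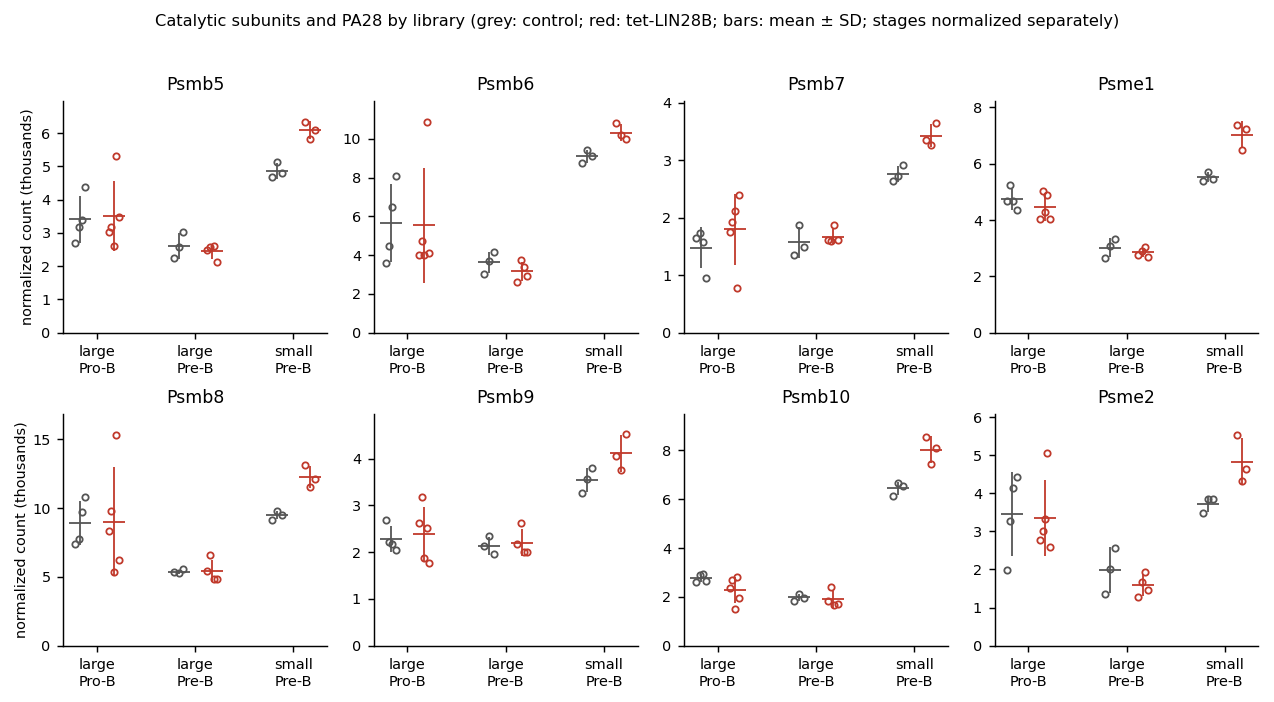
Normalized counts (y axis, from 0, in units of 1000) of the catalytic subunits and the PA28 genes in every library (open points; grey control, red tet-LIN28B; bars mean ± SD) for the 3 stages on the x axis, each stage normalized on its own. In small Pre-B cells the red points lie above the grey ones for all genes shown but Psmb9, whose lowest tet-LIN28B library (3755) is below the highest control (3799).

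Transcript length moved with these differences. In small Pre-B cells the median log2 fold change over all tested genes fell from 0.20 for transcripts of 500 to 1000 bases to 0.12 for 1000 to 1500, 0.07 for 1500 to 2000, 0.02 for 2000 to 3000, -0.03 for 3000 to 4000 and -0.09 for 4000 to 6000. Proteasome transcripts are short, with a median of 1435 bases against 3065 for all tested genes with a length. Their medians in the same ranges were 0.32 (8 genes), 0.24 (17), 0.24 (11), 0.19 (8), 0.07 (2) and 0.03 (1), in each range above the median of all genes. Psme4, with over 6000 bases, is in none of the ranges. Of the 36 genes with a transcript of up to 2000 bases 21 were called, and of the 12 longer ones 1 was, Psmd11. Over all genes the share called higher also fell with length, from 23.2% to 16%, 12.8%, 9.51%, 5.99% and 4.63% in the same ranges. The Spearman correlation of log2 fold change and length was -0.43 across the 48 genes and -0.27 across 11302 genes, a description over genes measured in the same libraries. With a smooth of each library's deviations on length subtracted, an alternative chosen after seeing the data, 11 proteasome genes were called and their median fell to 0.14, while 8.47% of all genes were called higher. Of the 22 calls 9 were kept (Psmb1, Psmb8, Psmb10, Psmc5, Psmd6, Psmd8, Psmd11, Psmd14 and Psme1), and Psma2 and Psma3 were added. With length and GC content both subtracted it was 10 genes and 0.13, with 8.26% of all genes called higher. What the trend with length comes from was not tested.

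**Figure D4:**
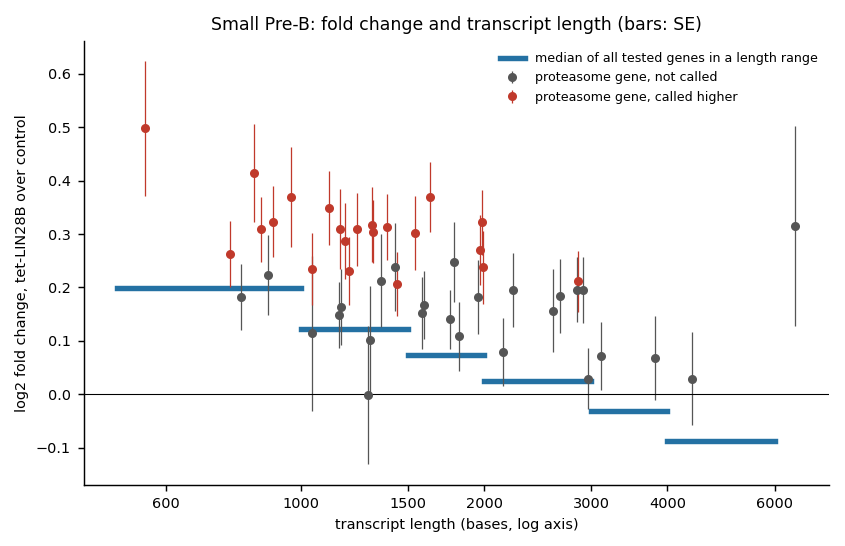
Log2 fold change in small Pre-B cells (y axis; bars SE) against the length of the longest protein-coding transcript (x axis, log scale) for the proteasome genes (red called higher, grey not called), with blue bars at the median of all tested genes in a range of lengths. The blue bars step down from 0.20 to -0.09, and most of the proteasome genes lie above the bar of their range.

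The number of calls also depended on single libraries. It was 7 without control replicate 1, 14 without control replicate 2, 10 without control replicate 3, 9 without tet-LIN28B replicate 1 and 19 without either of the other tet-LIN28B replicates. The share of all genes called higher fell as well, from 7.34% to 3.31, 4.56, 4.29, 3.76, 6.41 and 6.25% in the same order, while the members' median stayed between 0.20 and 0.22. Psmb8, Psmc5, Psmd6, Psmd8 and Psme1 were called in each of the 18 alternatives run in small Pre-B cells, and Psma1, Psma6, Psmc4, Psmd11 and Psmd13 in fewer than 10. With edgeR on the recovered reads 19 were called (6.78% of all genes higher), and with DESeq2 25 (9.25%).

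Other cell types and the stage of the cells were checked by their markers. The marker list of other cell types (27 genes) summed to 202 to 275 CPM in control and 98.8 to 103 in tet-LIN28B libraries of small Pre-B cells, and without Sdc1, left out after seeing its values, to 38.8 to 84.1 and 40.8 to 50.01. Of the 11 that could be tested 3 were higher (Bst2, Hba-a2 and Hbb-bs) and 3 lower (Sdc1, Ccr9 and Prdm1). Over all tested genes these shares were 7.34% and 7.03%. The T cell marker Cd3e was at 0 in all 6 libraries, and Mpo, of granulocyte precursors, was at 1162 normalized counts in 1 control library and at most at 9.96 in the tet-LIN28B libraries. The B precursor markers summed to 10355 to 10489 CPM in control and 10882 to 11492 in tet-LIN28B libraries. Among the 10 B precursor markers Cd79b was higher and Il2ra and Il7r were lower: Il2ra went from 10557 ± 348 to 4823 ± 386 (mean ± SD, n = 3 each; log2 -1.13 ± 0.071) and Il7r from 16919 ± 367 to 10353 ± 1554 (log2 -0.72 ± 0.093). Among 6 cycling genes Mki67 and Ccnb1 were higher, by 0.48 ± 0.12 and 0.63 ± 0.15, with 1283 ± 95.1 to 1799 ± 296 normalized counts of Mki67. The part of these shifts in the proteasome differences was not tested.

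The other genes of the pathway were taken from lists of general knowledge, and in both large stages 0 of their genes were called. In small Pre-B cells, the stage of the counts that follow, 7.34% of all tested genes were called higher and 7.03% lower. Of 14 tested genes whose products work with the proteasome 1 was higher and 1 lower, with a median log2 fold change of -0.01. Pomp, the chaperone of core maturation, was higher (log2 0.30 ± 0.069, adjusted p = 0.019). Ube3c, a ubiquitin ligase of the proteasome, was lower (log2 -0.31 ± 0.073, adjusted p = 0.0201). Of 7 genes of the NFE2L1 pathway 0 were higher and 1 was lower, Ddi2, the protease that activates NFE2L1 (log2 -0.30 ± 0.082, adjusted p = 0.0356), and Nfe2l1 itself was at -0.19 ± 0.13 (adjusted p = 0.372). Of the ubiquitin genes reported here, Rps27a, which encodes ubiquitin fused to a ribosomal protein, was higher (log2 0.35 ± 0.085, adjusted p = 0.0211), whereas the polyubiquitin gene Ubb (0.16 ± 0.081, adjusted p = 0.216) did not pass.

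MHC class I presentation uses the peptides the proteasome makes. In small Pre-B cells 5 of its 12 genes were higher and 1 lower, against 7.34% and 7.03% of all tested genes. The 5 were the chaperones Calr (0.59 ± 0.065) and Pdia3 (0.49 ± 0.11), the editor Tapbpl (0.30 ± 0.074), the peptide transporter Tap1 (0.29 ± 0.078) and the class I heavy chain H2-K1 (0.29 ± 0.073). Nlrc5, the transactivator of class I and immunoproteasome genes, was lower: 1816 ± 280.3 to 1179.7 ± 174 normalized counts (mean ± SD, n = 3 each; log2 -0.62 ± 0.14, adjusted p = 0.0143). Of the interferon signalling genes reported here, the receptor chain Ifngr1 (0.38 ± 0.071) and the transcription factor Irf8 (0.32 ± 0.065) were higher, while Irf1, known to drive Psmb9, was at 0.12 ± 0.065 (adjusted p = 0.264).

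The study lists transcripts bound to LIN28B in expanded Pro-B cell cultures. Among them 6 are proteasome genes: Psmb1, Psmb4, Psmb9, Psmc3, Psmd2 and Psmd13. The study asks for caution in carrying this list over to small Pre-B cells. Binding is also a different measure from the RNA levels given here. In small Pre-B cells 3 of the 6 were called higher (Psmb1, Psmb4 and Psmd13), against 22 of 48 tested members. Of all tested genes 7.34% were called higher. The median log2 fold change of the 6 was 0.23, against 0.22 for all tested members. Psmc3 had 7804, 8498 and 8315 in control and 9353, 8547 and 8644 in tet-LIN28B libraries, and Psmd2 and Psmc3 had log2 fold changes of 0.03 and 0.11, both among the lower values of the family. In large Pro-B cells the median of the 6 was 0.01, and in large Pre-B cells it was 0.09, with 0 called.

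In large Pre-B cells, the dividing stage that follows a productive heavy chain, 0 of 49 proteasome genes were called by limma in either direction. Of 14155 genes tested, 0.0424% were called higher and 0.0141% lower. The family had 24 positive and 25 negative values with a median log2 fold change of 0.00 (-0.0018), against -0.02 over all genes. At an unadjusted p under 0.05 there was 1 member and 930 genes in all, and edgeR and DESeq2 each called 0 members. The SEs were larger than in small Pre-B cells (median 0.21 against 0.068), and the 95% interval reached a median of 0.45 to either side on the log2 scale, so differences of the size measured in small Pre-B cells were not detectable at this spread.

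None of the catalytic subunits was called in large Pre-B cells. Psmb8 had 5364, 5256 and 5547 in control and 5395, 6572, 4833 and 4844 in tet-LIN28B libraries, and Psmb5 had 2242, 2578 and 3023 in control and 2475, 2583, 2601 and 2112 in tet-LIN28B libraries. The groups of both overlapped (log2 -0.01 ± 0.20 and -0.09 ± 0.20, adjusted p = 0.996 and 0.926). Psmb6, Psmb7, Psmb9 and Psmb10 had log2 fold changes of -0.20 ± 0.21, 0.10 ± 0.20, 0.03 ± 0.20 and -0.07 ± 0.21, and Psme1 and Psme2 of -0.08 ± 0.19 and -0.29 ± 0.24. The lowest value was that of Psma8, which had 21.2, 37.4 and 19.2 in control and 3.95, 2.3, 9.5 and 18.5 in tet-LIN28B libraries. Its highest tet-LIN28B library lay below the lowest control, and its log2 fold change of -1.77 ± 0.81 had an unadjusted p of 0.0455 and an adjusted p of 0.747. The highest was that of Psme2b at 0.66 ± 0.31 (adjusted p = 0.747). All 4 alpha ring chaperones were negative, from -0.30 for Psmg1 to -0.21 for Psmg3, with adjusted p of 0.77 to 0.908. Psmb11, the thymus form of the catalytic subunit, was below the limit for testing at 2.83, 1.15 and 13.4 in control and 0, 0.576, 0 and 3.55 in tet-LIN28B libraries.

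Control replicate 3, which stood apart from the other libraries, held some of the most extreme values. Psmd2 had 16808, 11383 and 7794 in control and 14768, 17861, 14007 and 13518 in tet-LIN28B libraries (log2 0.39 ± 0.26, adjusted p = 0.767), and the control at 7794 was that replicate. Without it the median of the family was -0.06, again with 0 calls. Scaling moved the center of this stage: with each library brought to the same total, the median of all genes was -0.12 and that of the proteasome genes -0.11, and with quantile normalization these were -0.02 and -0.14, with 8 of 49 members positive. Here length had the opposite sign to that in small Pre-B cells, with a median over all genes of -0.26 for transcripts of 500 to 1000 bases and 0.13 for 4000 to 6000, and after its subtraction the family's median was 0.10, with 36 of 49 above 0.

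In large Pro-B cells, the stage of heavy chain rearrangement, 0 of 49 proteasome genes and 0 of 13776 genes (0% in each direction) were called by limma. At an unadjusted p under 0.05 there were 0 members and 394 genes, and edgeR called 0 genes and DESeq2 4, none a member. The family's median log2 fold change was -0.02, against 0.02 over all genes, with values from -0.32 (Psmb10) to 0.35 (Psma8) and 21 of 49 above 0. Log2 fold change rose with length over all genes (Spearman 0.31 across 11788 genes), and after subtraction of length the family's median was 0.07 with 39 of 49 values above 0 and 0 calls. The median SE was 0.24 and the 95% interval reached a median of 0.52 to either side on the log2 scale.

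Libraries of 1 genotype spread widely in large Pro-B cells. Psmb6 had 3578, 4465, 6485 and 8057 in control and 3992, 4739, 3996, 10839 and 4110.2 in tet-LIN28B libraries, with both replicates 4 the highest of their groups. Psmb7 had 1652, 1737, 1584 and 958 in control and 1759, 1933, 2125, 772 and 2404 in tet-LIN28B libraries, with both replicates 4 the lowest. Their log2 fold changes were -0.08 ± 0.34 and 0.22 ± 0.33. Psma7, Psma3, Psmd7 and Psmd12, picked after seeing their values, were likewise highest of their group in both replicates 4, with 9204 and 11215 for Psma7 against 3758 in control replicate 1. Psmb8 had 7423, 7766, 9721 and 10807 in control and 8346, 9792, 5371, 15334 and 6197 in tet-LIN28B libraries, and Psmb5 had 2694, 3184, 3392 and 4366 in control and 3024, 3173, 2602, 5306 and 3478 in tet-LIN28B libraries. Their groups overlapped (log2 -0.07 ± 0.29 and 0.02 ± 0.24). Psmb10 had 2616, 2875, 2938 and 2642 in control and 2355, 2689, 1516, 2824 and 1952 in tet-LIN28B libraries, with tet-LIN28B replicates 3 and 5 lowest (log2 -0.32 ± 0.22, adjusted p = 0.999). Psmb9, Psme1 and Psme2 were at 0.04 ± 0.22, -0.09 ± 0.17 and -0.02 ± 0.28. Psma8 had 13.6, 30.1, 42.3 and 66.7 in control and 19.5, 43.6, 47.9, 74.1 and 43.9 in tet-LIN28B libraries (log2 0.35 ± 0.58). Without both replicates 4, chosen after seeing the data, the median was -0.04 with 0 calls, and it was -0.12 without tet-LIN28B replicate 4 alone.

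**Figure D5:**
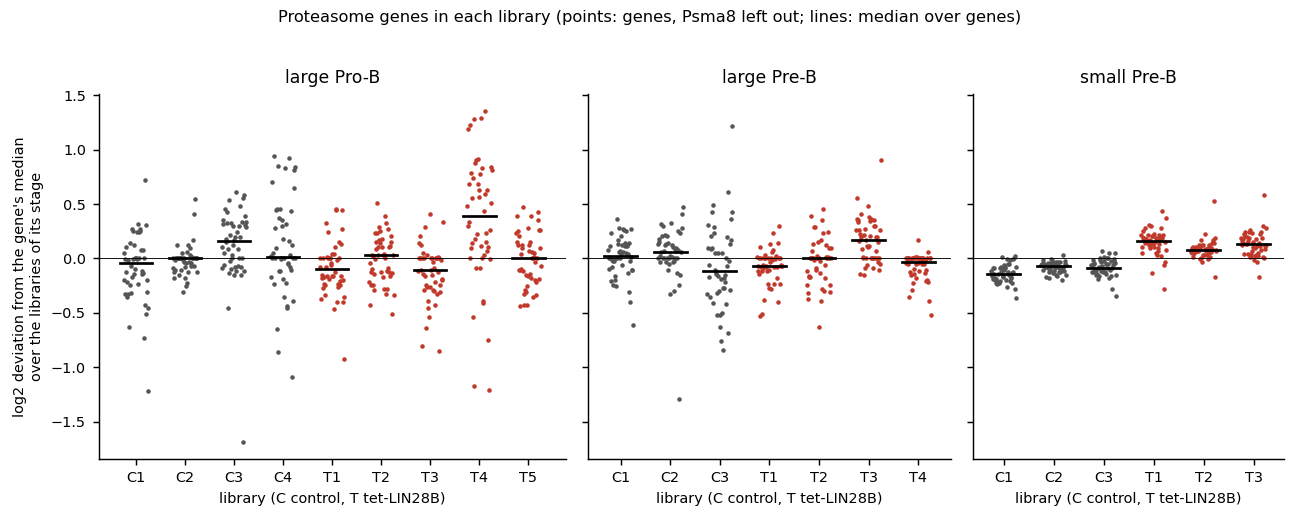
Log2 deviation of each tested proteasome gene (points; Psma8 left out) from its median over the libraries of its stage, by library (x axis; C control, T tet-LIN28B, with replicate numbers), with lines at the median over genes. In large Pro-B cells the points of C4 and T4 spread the most (SD 0.45 and 0.58 with Psma8, against 0.16 to 0.38 in the others), and in small Pre-B cells the 3 control medians lie below 0 and the 3 tet-LIN28B medians above it.

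Whether the effect of LIN28B on these genes differed between stages was tested in 1 limma model of all 22 libraries with the mouse as a block, over 11830 genes measured in every stage. Of 48 proteasome genes, 0 were called for a difference between large Pre-B and large Pro-B (0% of all genes called), 0 between small Pre-B and large Pro-B (0.0338%) and 0 between small Pre-B and large Pre-B cells (0.0169%). The 22 calls of small Pre-B cells are thus not shown to be particular to that stage, and the stage cannot be told apart from the set of mice. At an unadjusted p under 0.05 there were 0, 2 and 1 members, and 4.4%, 4.79% and 2.42% of all genes. The largest difference among these was that of Psmb10, at 0.64 ± 0.25 between small Pre-B and large Pro-B cells (limma adjusted p = 0.871), and Psme1 was at 0.44 ± 0.19 and 0.42 ± 0.20 against the large stages (limma adjusted p = 0.944 and 0.999). The median difference over the members was 0.26 against large Pro-B and 0.21 against large Pre-B cells (all genes 0.00 and -0.04). Without the 3 libraries that stood apart, a set chosen after seeing the data, 10 members had an unadjusted p under 0.05 between small Pre-B and large Pro-B cells and 0 an adjusted one (lowest 0.162), and the share of all genes at that unadjusted p rose to 13.7%.

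Levels within the family, per 1000 bases of transcript so that genes can be compared, spanned a wide range in control small Pre-B cells. Psmb6 was highest at 11387 normalized counts per kb, followed by Psmb3 at 9279, Psmb2 at 7148 and Psma1 at 7084. Among the tested members Psmc3ip (364) and the chaperone Psmg1 (374) were lowest. Of the catalytic pairs, Psmb8 was at 5826 and Psmb5 at 5415, Psmb10 at 4913 and Psmb7 at 2383, and Psmb9 at 2622 and Psmb6 at 11387. These levels rest on the longest annotated transcript of each gene, which may not be the one expressed, and the values of Psmb8 and Psmb5 lie too close to be ordered on that basis. In control large Pro-B and large Pre-B cells Psmb6 stood at 7075 and 4547 per kb and Psmb8 at 5485 and 3310.1, on the separate scales of those tables. As a share of each library, the family took 11090 to 14022 CPM in large Pro-B, 10254 to 11471 in large Pre-B and 7106 to 8427 in small Pre-B cells, both genotypes together.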

How the data were processed

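Precursors were sorted as CD93+ IgM- cells, split into Pro-B and Pre-B by cKIT and into large and small by forward scatter, and libraries were made with the SMART-Seq v4 and Nextera XT kits, which do not mark strand. Per the labels, the authors aligned reads with STAR (version 2.7.1) to mm10, quantified genes with RSEM (version 1.28) and deposited DESeq2 normalized counts, a signal in which each library's counts are divided by 1 size factor, with each stage scaled on its own. Which gene models were counted is not stated in the sources read. The authors' own comparison tables (base means, log2 fold changes, SEs, Wald statistics and p-values) were not used. The deposited values were whole multiples of 1 read, within 0.1 read, for 100%, 100% and 99.9994% of values in the stages in order, so reads were recovered for depth and for count tests.

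For each stage, limma (version 3.58.1, R 4.3.3) with a mean-variance trend was fitted to log2(normalized count + 1) over all genes with at least 10 in as many libraries as the smaller group, with calls at p under 0.05 after Benjamini-Hochberg adjustment. A fold change on this scale understates that of low genes. Stage differences were contrasts in 1 limma model with the mouse as a block (correlation 0.278), and ratios were compared by exact permutation of libraries. The labels call the libraries biological replicates. Alternatives were pseudocounts of 0.5 and 5, no filter or a minimum of 50, the same total, quantile normalization, edgeR (version 4.0.16) and DESeq2 (version 1.42.0) on the recovered reads, a replicate block and leaving out each library. Corrections for transcript length and GC content (lowess, span 0.3, GENCODE basic annotation of GRCm38, longest protein-coding transcript) and sets without the libraries that stood apart were added after seeing the data. Intervals cover the spread between libraries.

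The genes named with values were the called members, the catalytic and PA28 genes, the lowest and highest member of each stage, the untested members and those on the LIN28B-bound list, and other members were named after their values were seen to complete their subgroup. The members and all lists were chosen with earlier results of these data known. Of the 50 members, 14 have exons that overlap another gene. Among the called genes these include Psme1 (Emc9), Psmb7 (Nek6), Psmd13 (Sirt3) and Psma5 (1700010K24Rik), each with a gene on the opposite strand. Some genes of the ubiquitin and interferon lists are not reported here, so no counts are given for these lists.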

Additional observations from a re-analysis of the deposited data

Results flagged for a closer look

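In 43 groups of 4 or 5 libraries of the named proteasome genes, the highest or lowest library was checked for a gap to its nearest neighbour beyond Dixon's 95% limit. There were 4 such values, in 3 libraries, where chance gives about 1 in 20 groups. Psmc3, a base ATPase, was at 10865.5 normalized counts in control replicate 1 of large Pro-B cells, and the other 3 controls lay between 9892 and 10035. Psmb6, the caspase-like subunit, was at 10839 in tet-LIN28B replicate 4 of large Pro-B cells, against 3992 to 4739 in the other 4. In the same library Psmb1, a structural beta subunit, was at 6394, against 3134 to 3721. Psmb7, the trypsin-like subunit, was at 1873 in tet-LIN28B replicate 3 of large Pre-B cells, against 1592 to 1615 in the other 3. None of these genes was called in the stage concerned, with or without that library.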

How the results depend on the processing

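In small Pre-B cells the number of proteasome genes called higher was between 7 and 19 when 1 library was left out (7, 14 and 10 without control replicates 1, 2 and 3, and 9 without tet-LIN28B replicate 1), 11 with the length correction and 10 with length and GC corrected together, against 22. In the other 10 alternatives it was between 16 and 25. The number called lower was 0 in all 18. The median log2 fold change was 0.18 with libraries at the same total, 0.14 with the length correction and 0.13 with length and GC corrected, against 0.22. In large Pre-B cells it was -0.14 with quantile normalization, against 0.00 (-0.0018). The cause was not tested. No call was made among the members of the large stages or for a stage difference under any alternative run. No ratio of catalytic subunits was called either, but those tests could hardly give a call. By the exact permutation test the smallest possible p, before adjustment, was 0.10 in small Pre-B cells. It was 0.0286 in large Pre-B and 0.00794 in large Pro-B cells, where no single ratio could pass on its own after adjustment. Of 486 values of 27 members followed in small Pre-B cells, 378 kept their side of the threshold and 108 lost the call, with no reversal of a called value. Of the other members 6 gained a call under at least 1 alternative (Psma2, Psma3, Psmc2, Psmd10, Psme3 and Psme4). With the replicate number as a block 16 members (1758 genes) were called in small Pre-B cells, 0 members in either large stage. The labels do not say that the numbers pair the samples. Same-numbered libraries correlated at 0.43, 0.14, -0.19 and 0.27 in large Pro-B cells, where 2 of 4 numbers correlated best with their own. They correlated at 0.16, 0.14 and -0.059 in large Pre-B and at 0.017, -0.11 and -0.0043 in small Pre-B cells, where none did. Whether libraries of the same number share a factor was not tested. In the large stages the spread between libraries gave 95% intervals whose upper side reached a median of 43.2% (large Pro-B) and 36.7% (large Pre-B), against 11.04% in small Pre-B cells.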
